A study of Mus musculus with 26 samples.

Results

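The comparison concerned organoids of mouse mammary tumors that received a control antisense oligonucleotide, named scASO in the labels, and organoids of the same culture system labelled Mock. Its members were chosen by sample title and comprise 8 of the 26 RNA-seq libraries of the series, 4 scASO and 4 Mock, numbered 1 to 4 in each group. All 8 came from MMTV-PyMT tumors on the C57BL/6 strain. In this model the mammary tumor virus promoter drives the polyoma middle T oncogene in the mammary epithelium, so the Mock libraries are tumor organoids as well. Organoids were grown in Matrigel with FGF2, and scASO was added at 500 nM, renewed after 3 days and kept on for 6 days in all. The labels name no agent for Mock and do not state whether it received a delivery reagent. The remaining organoid libraries, 4 with Malat1 ASO1 and 4 with Malat1 ASO2 at the same dose and time, entered the fits to estimate the spread. The other 10 libraries, from tumors, were not used. The labels do not say whether equal numbers mark a shared tumor, mouse or culture day, nor whether the libraries of a group came from separate cultures. The p-values therefore refer to library-to-library spread, which may be technical.

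Antisense oligonucleotides are short synthetic strands of modified DNA that pair with a chosen RNA and recruit RNase H, which cuts the RNA of the hybrid. A control oligonucleotide is meant to have the same chemistry without an intended target, and its comparison with Mock addresses what the oligonucleotide does apart from target cleavage. Such oligonucleotides are known to enter cells by endocytosis through scavenger and lipoprotein receptors and to bind many proteins, and some engage Toll-like receptors or interferon responses. The sequence of scASO was not used here.

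The 8 libraries held 23973533 to 40515685 reads assigned to genes. Values are given as CPM, the normalised read count relative to the total in genes after trimmed-mean scaling. Epithelial markers were high in every library: the summed level of 16 mammary epithelial genes was 6463 to 7618 CPM in Mock and 6306 to 6934 CPM in scASO, and 9 of the 16 had a positive estimate and 7 a negative one. Libraries with the same number resembled each other across groups. In all 24 pairs of libraries with equal numbers and different groups, the deviations of genes from their group mean were positively correlated, at 0.469 to 0.933, so the number was fitted as a block. Pairs with different numbers ranged from -0.763 to 0.800, and 14 of these 72 were over 0.1.

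Malat1, the nuclear long non-coding RNA that the other oligonucleotides of the series target, served to check the labels. In numbers 1 to 4 it was at 694, 1447, 667 and 1261 CPM in Mock and at 762, 106, 730 and 1130 CPM in scASO. The library labelled scASO 2 therefore held a Malat1 level inside the range of the 4 libraries labelled ASO1, which were at 80.4 to 169 CPM. Its profile also correlated more strongly with the number 1 libraries of Mock and ASO1 (0.747) than with those of number 2 (0.556). By the same measure scASO 1, 3 and 4 correlated best with their own number (0.800, 0.858 and 0.939). Among the 8 libraries, scASO 1 and scASO 2 were the least different pair, with a chi-square per degree of freedom of 15, still far above sampling noise. The library labelled ASO2 1 went against its label in the other direction, with 1343 CPM of Malat1. Results are therefore given for all 16 organoid libraries and, for the counts, the lists and the genes they turn on, also without the library labelled scASO 2 or without both of these libraries.

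Over all 4 libraries per group, mean Malat1 on the log2 scale was 53% of Mock, a log2 ratio of -0.915, and an exact two-sided permutation test over 70 splits gave p = 0.343. Leaving out the library labelled scASO 2, it was 89.3% of Mock, a log2 ratio of -0.163, with p = 0.714 in the exact permutation test over 35 splits. Neat1, the paraspeckle RNA encoded next to Malat1, was at 841, 688, 831 and 1661 CPM in Mock and 906, 855, 729 and 1151 CPM in scASO. Its level was 95.0% of Mock in all libraries (exact permutation p = 0.886). The groups overlapped for both RNAs with and without the library labelled scASO 2.

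Genes called higher with scASO included the secreted antagonist Grem1, the matrix and cytoskeletal genes Adamts4, Fn1, Flnc and Vim and the endocytic receptor Lrp1. A smaller group was called lower, with smaller changes, and included Fam234b, Syne4 and the ribosomal protein gene Rpl37. In edgeR's quasi-likelihood test with the number as a block and Benjamini-Hochberg adjustment over 17126 genes, 128 genes had an adjusted p under 0.05, or 0.747% of those tested. Of these, 94 were higher (0.549%) and 34 lower (0.199%). The median change was 0.865 on the log2 scale among the higher genes (range 0.353 to 4.06) and -0.570 among the lower. Of the 94 higher genes, 89 were higher in scASO in all 4 numbers, and all 34 lower genes were lower in all 4. A test with this block favours genes that move alike within numbers, so these counts are no separate evidence. The levels in the 4 Mock libraries did not overlap those in the 4 scASO libraries for 12 of the 94 and 3 of the 34. Over all 17126 genes tested the groups did not overlap for 76 with higher levels in scASO (0.444%) and 80 with lower levels (0.467%). For 68 of the 94 and 32 of the 34, the range over the Mock libraries alone was wider than the change.

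The size of the call set depended on single libraries and on the block. Without the library labelled scASO 2, 50 genes were higher (0.288% of 17388) and 4 lower (0.023%), and 46 of the 94 and 2 of the 34 passed again. Without that library and ASO2 1, 1.78% of 17325 genes passed, 243 higher (1.4%) and 65 lower (0.375%), which included 91 of the 94 and 26 of the 34. With no block for the number, edgeR called no gene, 272 genes being at an unadjusted p under 0.05. The DESeq2 test and limma, both with the block, gave 331 and 344 higher and 265 and 249 lower genes. Left out in turn, 7 of the 8 libraries moved the count of higher genes by over 1.5 times: it was 13 without Mock 2, 41 without Mock 3, 17 without Mock 4, 5 without scASO 1, 43 without scASO 3 and 10 without scASO 4, next to 50 without scASO 2. The count of lower genes was 1, 6, 2, 0, 2, 0 and 4 in the same order. Without Mock 1 it was 80 higher and 28 lower. The 5 genes called in all 8 of these fits were Grem1, Lrrc8c, Kif1a, Adamts4 and Flnc, and Plxnd1 and Lrp1 were each called in 7 of 8. At the other end, 18 of the 94 higher and 15 of the 34 lower genes passed in none of the 8.

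**Figure D1:**
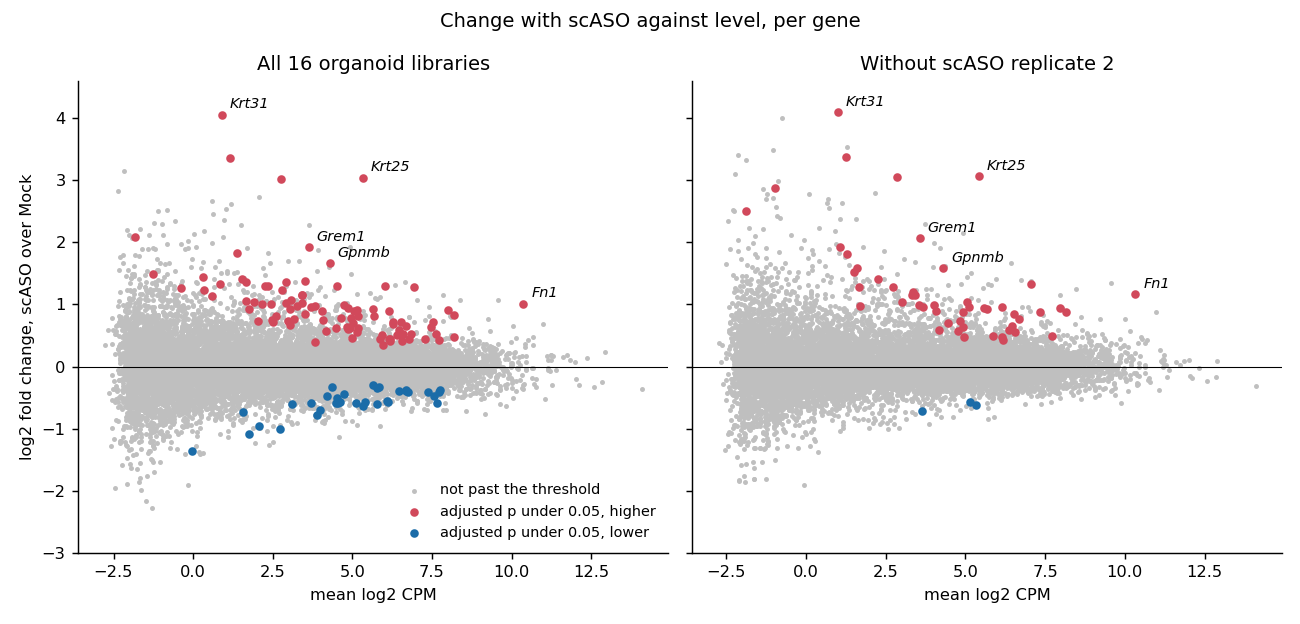
Log2 fold change of scASO over Mock (vertical axis) against mean log2 CPM (horizontal axis) for each gene in the fit over 16 libraries (left) and without the library labelled scASO 2 (right). Coloured points have an adjusted p under 0.05. The right panel shows only genes also tested on the left, which leaves 50 higher and 3 lower calls, and 2 uncoloured genes lie beyond its axis. Higher calls reach 4.06 on the left, and most calls below 0 on the left are grey on the right.

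Grem1 encodes gremlin 1, a secreted antagonist of bone morphogenetic proteins, and lies on chromosome 2 (113746164 to 113758646, minus strand, GRCm38). It was at 3.52, 7.87, 2.11 and 5.35 CPM in Mock 1 to 4 and at 16.2, 19.7, 11.9 and 17.9 CPM in scASO 1 to 4. Mock averaged 4.71 ± 2.49 CPM and scASO 16.4 ± 3.32 CPM (SD, n = 4 each). The lowest scASO library lay above the highest Mock library. The log2 fold change was 1.93 ± 0.21 (SE; adjusted p = 0.00316), and 2.07 without the library labelled scASO 2 (adjusted p = 0.00249). Grem1 was the only one of 28 tested TGF-beta and BMP targets to pass (3.57%, against 0.549% of all genes called higher). Of the 28, 23 had positive estimates, and the median over the list was 0.20.

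Lrrc8c encodes a subunit of the volume-regulated anion channel, on chromosome 5 (105519388 to 105613018, plus strand, GRCm38). Its levels were 28.4, 31.6, 14.6 and 13.2 CPM in Mock and 52.9, 54.3, 24.7 and 29.8 CPM in scASO. Numbers 1 and 2 were high and numbers 3 and 4 low in both groups, so the groups overlapped while each scASO library exceeded the Mock library of its number. The log2 fold change was 0.90 ± 0.09 (adjusted p = 0.00274), the smallest p of all genes, and 0.96 without the library labelled scASO 2.

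Adamts4, an aggrecanase of the extracellular matrix on chromosome 1 (171250421 to 171260637, plus strand, GRCm38), was at 47.9, 61.0, 35.2 and 27.9 CPM in Mock and 78.2, 94.6, 64.0 and 71.6 CPM in scASO. All 4 scASO libraries were above all 4 Mock libraries. Its log2 fold change was 0.89 ± 0.11 (adjusted p = 0.00653). Flnc, encoding the actin cross-linker filamin C, was at 6.46, 9.02, 1.83 and 3.64 CPM in Mock and 17.8, 19.3, 3.70 and 7.0 CPM in scASO, a change of 1.15 ± 0.14. Kif1a, a motor of axonal vesicle transport, was at 10.2, 9.72, 2.23 and 9.95 CPM in Mock and 19.1, 19.6, 5.12 and 16.8 CPM in scASO, a change of 0.95 ± 0.12. For Flnc and Kif1a the overlap between groups came from number 3, and for Flnc also from number 4, which were low in both groups.

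Of the other named genes that were higher, Plxnd1, a semaphorin receptor, rose by 0.89 ± 0.12 and by 1.00 without the library labelled scASO 2. Tpbg, the trophoblast glycoprotein 5T4, rose by 0.46 ± 0.07, from 26, 27.3, 14 and 27.5 CPM to 36.2, 36.5, 20.8 and 35.9 CPM. Adam19, a membrane protease, rose by 1.36 ± 0.23, and by 1.58 without that library. Serpina3n, a secreted serine protease inhibitor, rose by 1.3 ± 0.20 and 1.41. Fam167a rose by 0.65 ± 0.12 and 0.77. Adam19 and Fam167a passed in 1 and 2 of the 8 fits that left out a library.

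**Figure D2:**
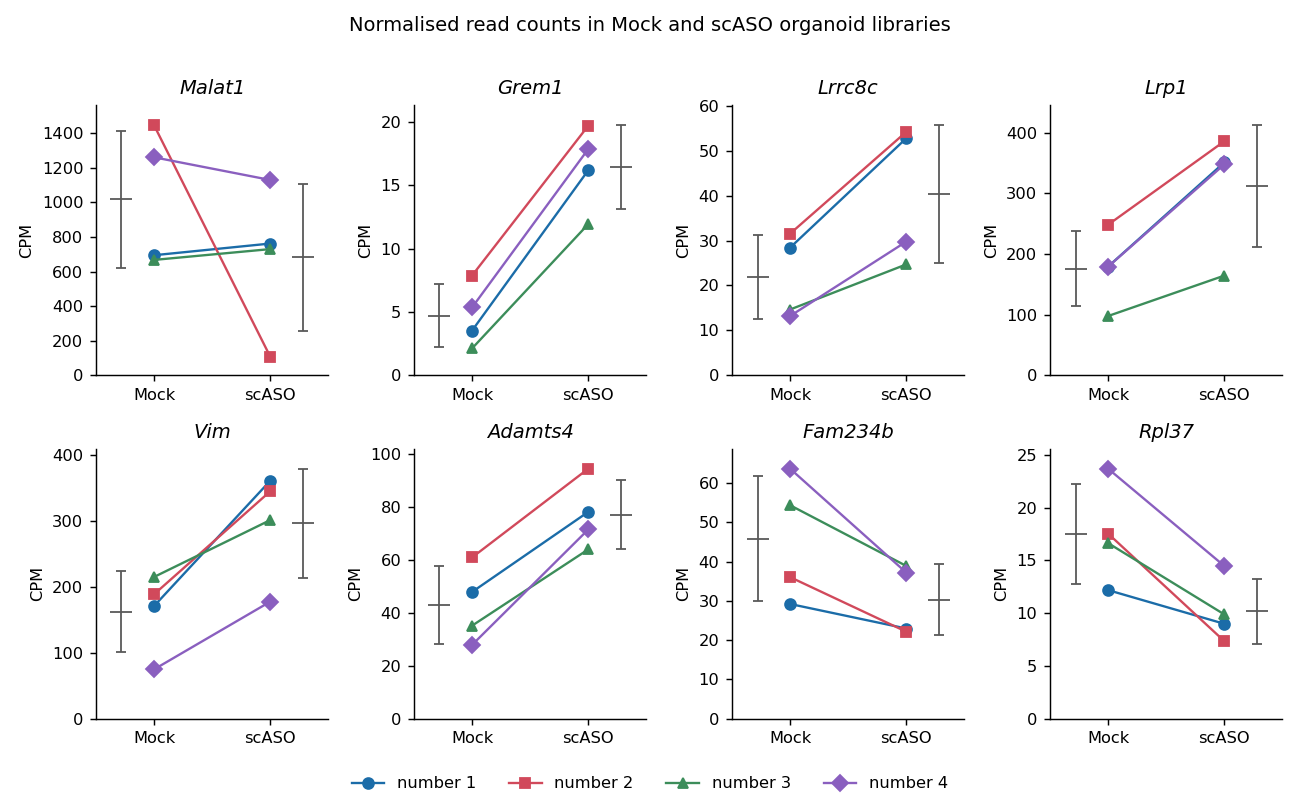
CPM of 8 genes in each Mock and scASO library; lines join libraries of the same number, and the bars beside them give the mean and SD of 4 libraries. Malat1 is at 106 CPM in scASO 2 and at 730 to 1130 CPM in the other scASO libraries. Grem1 and Adamts4 separate the groups completely, and the other 5 genes move the same way in each number while their groups overlap.

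Genes of mesenchymal character and of the matrix had mostly positive estimates. Their lists, like the others described here, were chosen with earlier results of these data known, so the counts describe them and are no independent evidence of direction. Of 26 mesenchymal transition genes tested, 4 were called higher (15.4%, against 0.549% of all genes) and none lower. All 26 had a positive estimate with a median of 0.50, against -0.001 for all genes. The list also holds the epithelial regulators Grhl2, Ovol1, Ovol2, Esrp1 and Esrp2, whose estimates were 0.01 to 0.17 and which did not pass. The median was 0.45 and 3 genes passed (11.5%, against 0.288% of all genes called higher) without the library labelled scASO 2. Without both doubted libraries 10 passed (38.5%, against 1.4%). Within numbers 1 to 4 the median ratio was 0.36, 0.33, 0.44 and 0.44.

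Vim, the intermediate filament vimentin, was at 171, 189, 215 and 74.7 CPM in Mock and 361, 345, 301 and 178 CPM in scASO. Number 4 was low in both groups, and the change was 0.92 ± 0.14 (adjusted p = 0.0183). Fn1, the matrix glycoprotein fibronectin, was at 920, 1363, 291 and 481 CPM in Mock and 1889, 1833, 712 and 1149 CPM in scASO, a change of 1.01 ± 0.19 (adjusted p = 0.0356). S100a4, a calcium-binding protein used as a mesenchymal marker, was at 6.95, 5.70, 7.45 and 4.0 CPM in Mock and 22.6, 22.2, 11.7 and 7.94 CPM in scASO, with no overlap. Its change was 1.38 ± 0.22 and 1.15 without the library labelled scASO 2. Zeb2, a transcriptional repressor of epithelial genes, was at 3.28, 3.55, 1.76 and 2.32 CPM in Mock and 11.8, 7.69, 2.64 and 2.99 CPM in scASO. Its change of 1.01 ± 0.21 passed with all libraries (adjusted p = 0.047), did not pass without the library labelled scASO 2 (adjusted p = 0.0922), and passed in none of the fits that left out 1 of the 8 libraries.

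Of 39 matrix protein and protease genes tested, 36 had positive estimates with a median of 0.41. Of the 39, 5 were called higher (12.8%, against 0.549% of all genes) and none lower. The called genes were Adamts4, Nid1, Plat, Col17a1 and Timp1. Nid1, a basement membrane linker protein, was at 23.2, 30.1, 14.5 and 18.1 CPM in Mock and 52.9, 41.9, 21.2 and 33.8 CPM in scASO, a change of 0.78 ± 0.13. Plat, the tissue plasminogen activator, changed by 1.02 ± 0.19 and Col17a1, the hemidesmosome collagen, by 0.47 ± 0.09. Timp1, an inhibitor of matrix metalloproteases named here after its values were seen, changed by 1.3 ± 0.25. Without the library labelled scASO 2 the list's median was 0.49. In that fit Adamts4 and Nid1 passed (5.13%, against 0.288% of all genes called higher). Plat (adjusted p = 0.0671), Col17a1 (0.0623) and Timp1 (0.0511) did not. Without both doubted libraries 12 of the 39 passed (30.8%, against 1.4% of all genes called higher). Col18a1, the most highly counted member, had an estimate of 0.65 ± 0.15 that did not pass with all libraries (adjusted p = 0.0709). The median ratios within numbers 1 to 4 were 0.41, 0.30, 0.38 and 0.74.

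Of 24 basal and myoepithelial genes tested, 21 had positive estimates with a median of 0.31, and 2 were called higher (8.33%, against 0.549% of all genes). These were Vim and Pdpn, the membrane glycoprotein podoplanin, which was at 65.4, 82.2, 45.8 and 23 CPM in Mock and 100.3, 107, 65.7 and 54.0 CPM in scASO (0.68 ± 0.14, adjusted p = 0.047). Only Vim passed without the library labelled scASO 2, at a list median of 0.41. The basal keratin Krt14 (0.47 ± 0.13), the integrin Itgb4 (0.34 ± 0.09) and P-cadherin, Cdh3 (0.48 ± 0.10), did not pass. Krt8 and Krt18, the luminal keratins, had estimates of -0.05 ± 0.15 and -0.22 ± 0.19. They belong to a list of 28 luminal lineage and hormone receptor genes, 15 with positive and 13 with negative estimates. Its median was 0.04, and 0.03 without the library labelled scASO 2. With all libraries 1 of the 28 was called lower (3.57%, against 0.199% of all genes), and none without that library.

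Markers of stromal and immune cells were measured beside these lists. Of 16 fibroblast markers tested, 13 had positive estimates with a median of 0.37 and none passed. Their summed level was 911, 1173, 570 and 541 CPM in Mock and 991, 1011, 631 and 812 CPM in scASO, higher in scASO in numbers 1, 3 and 4. None of the 16 was at 0. Pdgfrb had an estimate of 0.97 ± 0.29, Col1a1 0.49 ± 0.25, Pdgfra 0.23 ± 0.13, Dcn 0.07 ± 0.56 and Postn -0.09 ± 0.17. Of 20 macrophage markers, 15 had positive estimates with a median of 0.25 and none passed. Without the library labelled scASO 2 the median was 0.05, with 12 positive estimates. The median ratios within numbers 1 to 4 were 0.13, 1.32, 0.20 and -0.32, so the positive median was carried mainly by number 2. The summed level of the 20 markers was 303 to 390 CPM in Mock and 382 to 470 CPM in scASO. None was at 0, and Ptprc lay between 0.586 and 4.35 CPM. Of 13 endothelial markers tested, 11 had positive estimates with a median of 0.41 (0.22 without the library labelled scASO 2) and none passed. The summed level of all 14 listed endothelial markers was 10.9 to 30.6 CPM in Mock and 12.8 to 38.3 CPM in scASO. Of 10 skeletal muscle markers tested, 8 had positive estimates with a median of 1.13. Within numbers 1 to 4 their median ratio was 1.72, -1.04, 0.84 and 1.67, and 9, 3, 9 and 9 of the 10 were higher in scASO. The summed level of all 12 listed muscle markers was 16.1, 35.8, 30.8 and 38.0 CPM in Mock and 33.6, 15.2, 29.4 and 30.7 CPM in scASO. That sum was higher in scASO in number 1 only. None of the 10 passed with all libraries. Without the library labelled scASO 2 the muscle median was 1.41 and 1 marker passed, the myosin gene Myh1 (10%, against 0.288% of all genes called higher). Without both doubted libraries the muscle median was 1.45 and 3 passed (30%, against 1.4%). Finally, 5 of 16 lymphocyte markers were at 0 in all 8 libraries. The part of these cells in the higher genes was not tested, and in bulk RNA a change in the number of cells of a type cannot be told apart from a change in RNA per cell.

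Among the genes that were lower with scASO, Fam234b was at 29.2, 36.1, 54.4 and 63.7 CPM in Mock and 22.9, 22.1, 38.9 and 37.2 CPM in scASO. It fell in each number, the groups overlapped, and its change was -0.58 ± 0.08 (adjusted p = 0.0181; 0.0284 without the library labelled scASO 2). Syne4, a nuclear envelope protein that binds kinesin, was at 47.8, 61.3, 50.1 and 53.8 CPM in Mock and 37.4, 38.7, 34.3 and 28.1 CPM in scASO. Its groups did not overlap, and it changed by -0.63 ± 0.10 (adjusted p = 0.0183; 0.0427 without that library). These 2 were the lower genes that passed both with and without the library labelled scASO 2. Gsta3, a glutathione transferase, passed only without it, at -0.71 ± 0.12 (adjusted p = 0.0284), against -0.59 ± 0.13 and an adjusted p of 0.054 with it.

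Of the other named genes that were lower, the vacuolar ATPase subunit Atp6v1c2 changed by -0.60 ± 0.10, the sialic acid enzyme Cmas by -0.41 ± 0.07, the branched-chain keto acid dehydrogenase subunit Bckdha by -0.41 ± 0.08 and the sugar transporter Slc5a9 by -0.56 ± 0.11. Cdkn1c, the cyclin-dependent kinase inhibitor p57, was at 5.26, 6.81, 16.7 and 8.91 CPM in Mock and 3.40, 2.76, 7.44 and 4.72 CPM in scASO, a change of -1.01 ± 0.18. Without the library labelled scASO 2 the estimates of these 5 genes were -0.92 to -0.38 and none passed. Cdkn1c was the only one of 15 cell cycle inhibitors to pass with all libraries (6.67%, against 0.199% of all genes called lower).

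Ribosomal protein genes had mostly negative estimates. In the list of 39 tested, 36 were negative with a median of -0.31, and 2 were called lower, Rpl37 and Rps18 (5.13%, against 0.199% of all genes). Rpl37, a protein of the large ribosomal subunit, was at 12.2, 17.5, 16.6 and 23.7 CPM in Mock and 8.98, 7.34, 9.88 and 14.5 CPM in scASO. It changed by -0.78 ± 0.13 (adjusted p = 0.0263), and by -0.67 without the library labelled scASO 2 (adjusted p = 0.0586). Rps18, of the small subunit, was at 79.5, 117, 260 and 395 CPM in Mock and 59.4, 80.3, 206 and 256 CPM in scASO (-0.48 ± 0.10, adjusted p = 0.047). Levels differed several-fold between numbers in both groups, so the groups overlapped, and each scASO library was below the Mock library of its number. Without the library labelled scASO 2 the list's median was -0.27, 38 of 39 were negative and none passed. Without both doubted libraries 3 passed (7.69%, against 0.375% of all genes called lower). The median ratios within numbers 1 to 4 were -0.13, -0.37, -0.26 and -0.47.

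Taking all cytoplasmic ribosomal protein genes by symbol, a family drawn up after values were seen, 75 of 81 had negative estimates, with a median of -0.33. Those called lower included Rpl37, Rps18 and Rpl35 (-0.59 ± 0.11). Of 92 ribosomal protein pseudogenes tested, 86 were negative with a median of -0.40 and 3 were called lower, against 0.199% of all genes. These were Rps15a-ps7 (-0.55 ± 0.10), Rpl36a-ps3 (-0.43 ± 0.08) and Rpl5-ps1 (-1.36 ± 0.28), the last at or under 2.09 CPM. The predicted gene Gm5963, also called lower, changed by -0.58 ± 0.11. Of the 34 lower genes, 7 were processed pseudogenes, a class that made up 5.93% of genes tested, while all 94 higher genes were protein-coding. Ribosomal protein genes and their copies are near identical, so reads may be divided between them or left out, and their values are uncertain. Reads with several alignments are listed apart from genes in the deposited tables. Relative to reads in genes they amounted to 23.1%, 25.4%, 26.2% and 32.7% in Mock and 21.2%, 21.5%, 24.2% and 27.7% in scASO, lower with scASO in each number. The part of these reads in the lower calls was not tested.

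Genes for handling of oligonucleotides showed 1 call. In a list of uptake receptors, endosomal release factors and RNase H subunits, 16 of 28 tested had positive estimates and the median was 0.06. Lrp1 alone passed (3.57%, against 0.549% of all genes called higher). Lrp1 encodes a large endocytic receptor of the lipoprotein receptor family, on chromosome 10 (127538161 to 127621148, minus strand, GRCm38). It was at 179, 248, 97.5 and 179 CPM in Mock and 351, 386, 164 and 348 CPM in scASO, and number 3 was the lowest in both groups. The change was 0.83 ± 0.11 (adjusted p = 0.0133) and 0.88 without the library labelled scASO 2 (adjusted p = 0.0161). Rnaseh1, the nuclease that such oligonucleotides recruit, was at 14.3, 15.1, 15 and 16.2 CPM in Mock and 14.9, 17.5, 12.8 and 13.5 CPM in scASO (-0.05 ± 0.10). Rab27a, a GTPase of exosome release, had an estimate of -0.52 ± 0.15 and the scavenger receptor Cd36 one of 0.91 ± 0.39, neither past the threshold. Rnaseh2a (-0.20 ± 0.09) and Anxa2 (0.02 ± 0.14), which aids endosomal release, did not pass.

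Of 30 genes for proteins that bind phosphorothioate oligonucleotides or build paraspeckles, none passed and the median was 0.05. The paraspeckle protein gene Sfpq had an estimate of 0.26 ± 0.11, Lrpprc 0.17 ± 0.08, Hspa8 0.21 ± 0.10, Hsp90aa1 0.20 ± 0.11 and Hsp90ab1 0.15 ± 0.11. These 5 estimates were smaller without the library labelled scASO 2, at 0.07 to 0.16.

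None of 28 nucleic acid sensors and adaptors passed, with 14 positive and 14 negative estimates and a median of -0.01. The RIG-I gene, listed as Ddx58, was at 125, 195, 148 and 77.4 CPM in Mock and 108, 108, 185 and 78.7 CPM in scASO (-0.19 ± 0.16). The endosomal receptor Tlr7 stayed under 1.22 CPM in all 8 libraries, with an estimate of 0.76 ± 0.25 (adjusted p = 0.17). The Toll-like receptor chaperone Unc93b1 had an estimate of -0.39 ± 0.12, the inflammasome adaptor Pycard -0.43 ± 0.12 and the nucleotide hydrolase Samhd1 -0.29 ± 0.09.

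Interferon-stimulated genes gave no call in either direction. With all libraries, 32 of 38 had negative estimates and the median was -0.41, but this rested on number 2. The median ratios within numbers 1 to 4 were -0.20, -1.40, 0.24 and -0.01, and without the library labelled scASO 2 the median was -0.07 with 16 positive and 22 negative estimates. Oas1a, which senses double-stranded RNA, was at 8.71, 25.1, 32.0 and 11.3 CPM in Mock and 6.39, 10.5, 31.9 and 7.94 CPM in scASO. Its estimate moved from -0.55 ± 0.24 to -0.36 ± 0.24 without that library. Ifi27, Ifi35 and Bst2 had estimates of -0.49 ± 0.14, -0.31 ± 0.12 and -0.58 ± 0.25 with all libraries and -0.36, -0.19 and -0.38 without it. The summed level of the list was 906, 2414, 1939 and 918 CPM in Mock and 836, 961, 2201 and 868 CPM in scASO, so Mock 2 was the highest of Mock and scASO 2 among the low libraries of scASO.

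Of 37 NF-kB targets and chemokines, 26 had positive estimates with a median of 0.21, and of 0.32 without the library labelled scASO 2. The TNF-induced gene Tnfaip2 alone passed with all libraries (2.7%, against 0.549% of all genes called higher). It was at 170, 141, 35.8 and 129 CPM in Mock and 215, 249, 59.5 and 208 CPM in scASO (0.63 ± 0.13, adjusted p = 0.0453). Without the library labelled scASO 2 it did not pass (adjusted p = 0.088). Vcam1, a leukocyte adhesion receptor, had an estimate of 1.09 ± 0.23 (adjusted p = 0.0535) and the cytokine Lif one of 0.80 ± 0.18 (0.0595). The alarmin Il33 had a negative estimate of -0.68 ± 0.16 (0.0809), and Lcn2, an iron-binding defence protein, one of -0.29 ± 0.15. Without both doubted libraries 5 members were called higher (13.5%, against 1.4% of all genes) and 1 lower, Il33 (2.7%, against 0.375%). The list's summed level was lower in scASO in each number, at 6085, 7681, 4911 and 6456 CPM in Mock and 5595, 6005, 4504 and 6297 CPM in scASO, opposite in direction to its median.

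Among 34 lysosome and TFEB target genes, 20 had positive estimates with a median of 0.04. Gpnmb alone passed (2.94%, against 0.549% of all genes called higher). Gpnmb, a lysosomal and surface glycoprotein also made by macrophages, was at 1.62, 4.22, 9.23 and 18.7 CPM in Mock and 7.32, 14.1, 33.4 and 34.9 CPM in scASO. Levels differed widely between numbers in both groups, which overlapped, and each scASO library was above the Mock library of its number. It rose by 1.67 ± 0.25 (adjusted p = 0.0183) and by 1.58 without the library labelled scASO 2. Other members did not pass: the proteases Ctsk (0.91 ± 0.30), Ctsh (-0.26 ± 0.11) and Ctsd (0.07 ± 0.09), and the galactosidase Gla (0.25 ± 0.11).

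Of 28 genes of cholesterol synthesis, uptake and export, 21 had positive estimates with a median of 0.11, and of 0.08 without the library labelled scASO 2. The sterol exporter Abcg1 (0.37 ± 0.13), the synthesis enzyme Cyp51 (0.20 ± 0.07) and the transcription factor gene Srebf2 (0.13 ± 0.09) did not pass.

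Cell cycle genes showed a pattern carried by number 2. Of 36 G1/S genes, 31 had positive estimates with a median of 0.30, and of 38 G2/M genes 37 did, with a median of 0.24; none passed. Within numbers 1 to 4 the median ratio was -0.03, 0.99, -0.06 and 0.13 for G1/S and -0.07, 0.91, -0.003 and -0.03 for G2/M. The medians were 0.02 and -0.04 once the library labelled scASO 2 was left out. The proliferation marker Mki67 was at 710, 372, 334 and 311 CPM in Mock and 715, 687, 465 and 362 CPM in scASO, an estimate of 0.43 ± 0.30 that became 0.10 without that library. Anln, Cenpf, Cenpe and Incenp went from 0.28, 0.49, 0.42 and 0.35 to 0.21, 0.16, 0.17 and 0.07. The D-type cyclin gene Ccnd2 was at 147, 98.0, 99.5 and 122.8 CPM in Mock and 227, 238, 198 and 224 CPM in scASO. Its groups did not overlap, yet its estimate of 0.96 ± 0.26 (adjusted p = 0.113) and of 0.69 without the library did not pass. Ccnd1 had an estimate of 0.40 ± 0.10 (adjusted p = 0.0984), E2f1 0.34 ± 0.12 and Tk1 -0.24 ± 0.10.

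Hypoxia and glycolysis genes depended largely on number 2 as well. With all libraries 32 of 35 had negative estimates and the median was -0.23, without any call. Leaving out the library labelled scASO 2 brought the median to -0.05, with 24 of 35 estimates still negative. Within numbers 1 to 4 the median ratio was 0.10, -0.68, -0.02 and -0.21. In number 4 too, only 7 of the 35 were higher in scASO. Pgk1 was at 39.0, 81.6, 227 and 440.1 CPM in Mock and 29.8, 36.7, 219 and 327 CPM in scASO (-0.48 ± 0.20, and -0.29 without that library). Aldoa (-0.29 ± 0.12), Gpi1 (-0.36 ± 0.18), Eno1 (-0.17 ± 0.09) and Pkm (0.07 ± 0.11), all glycolytic enzymes, did not pass. Of 13 protein genes of the mitochondrial genome, 9 had negative estimates with a median of -0.19, and -0.31 without the library labelled scASO 2. The cytochrome oxidase genes mt-Co1, mt-Co2 and mt-Co3 had estimates of -0.36 ± 0.19, -0.76 ± 0.21 and -0.67 ± 0.23 and the ATP synthase genes mt-Atp6 and mt-Atp8 of -0.67 ± 0.21 and -0.93 ± 0.26, and none passed.

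**Figure D3:**
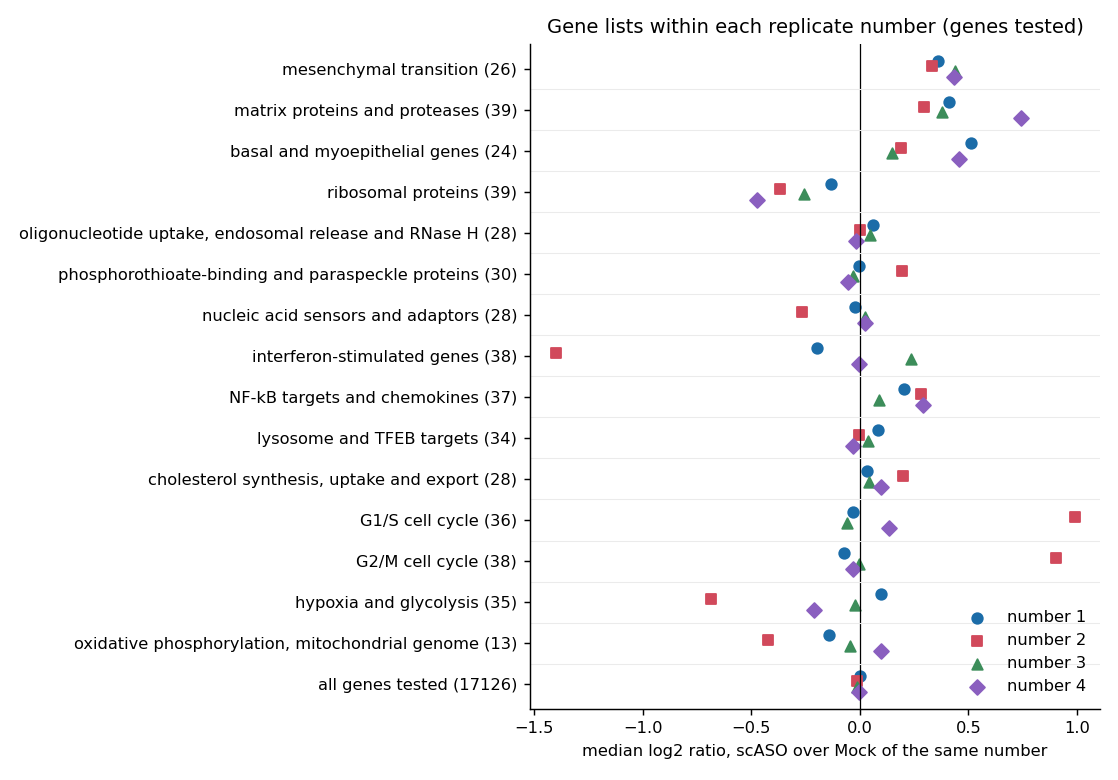
Median log2 ratio of scASO over Mock of the same number for 15 gene lists and for all genes tested; each symbol is 1 number. Mesenchymal and matrix genes lie right of 0 and ribosomal protein genes left of 0 in all 4 numbers, whereas interferon, cell cycle and hypoxia genes leave 0 mainly in number 2.

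Of the 39 pathway lists, 12 held at least 1 called gene and 27 held none, with 0.747% of all genes called. Without the library labelled scASO 2, 9 lists held a call, with 0.311% of all genes called. Without both doubted libraries 19 lists did, with 1.78% of all genes called. The lists without a call with all libraries are given here by genes tested, median, and median without the library labelled scASO 2. They included the unfolded protein response (24 genes, -0.07 and -0.05), the integrated stress response (32, -0.002 and -0.003), the heat shock response (20, 0.12 and 0.05), p53 targets and apoptosis (36, 0.05 and 0.07) and autophagy (27, -0.06 and -0.04). Antigen presentation (23, -0.15 and -0.03), immediate early genes (27, 0.01 and 0.02), cell junctions (29, 0.10 and 0.08) and nuclear speckle splicing factors (31, -0.01 and -0.02) gave none either. In number 2 the median ratio was -0.35 for antigen presentation and 0.31 for the heat shock response. Immediate early genes were divided by number, with median ratios of 0.34 and 0.23 in numbers 1 and 2 and -0.19 and -0.31 in numbers 3 and 4. A list of genes around Malat1 gave no call among 17 tested. Calls absent here show only that no member passed at this spread.

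Among the called genes, the 4 with the largest changes were 3 hair keratins and Mt4, and these changes rested on number 4. Krt25, a keratin of the inner root sheath (chromosome 11, 99315516 to 99322951, minus strand, GRCm38), had no read in any Mock or scASO library of numbers 1 to 3. In number 4 it was at 27.3 CPM in Mock and 229 CPM in scASO, and the fit gave 3.05 ± 0.31 (adjusted p = 0.0183). Krt31, a hair shaft keratin, was likewise read only in number 4, at 0.280 and 5.11 CPM (4.06 ± 0.58). Krt82 was at 0.719 and 8.53 CPM in number 4 and at or under 0.101 CPM in the other libraries (3.35 ± 0.53). Mt4, a metallothionein of stratified epithelium, was at 0 in numbers 1 to 3 and at 3.08 and 25.6 CPM in number 4 (3.02 ± 0.31). For these 4 genes the difference between scASO and Mock is that of 1 library against 1. With 1 library per group in number 4, the number and group terms together fit those libraries almost exactly. The adjusted p of these 4 genes therefore takes its spread largely from other genes. In DESeq2 with the block, Krt25 (0.84, adjusted p = 0.942), Krt31 (0.87, 0.893) and Mt4 (0.72, 0.949) did not pass and their log2 fold changes were far smaller, while Krt82 passed at 3.27. Krt31 also missed the threshold in limma (2.73, adjusted p = 0.0544).

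Part of the keratin family, which was drawn up after values were seen, was divided in the same way. Of 43 keratin genes tested, 37 had positive estimates and 3 were called higher, against 0.549% of all genes. Without both doubted libraries 13 were called higher, against 1.4% of all genes. In numbers 1 to 3, 18 of the 43 stayed under 1 CPM, and 12 of the 13 belong to those 18. In number 4 the inner root sheath keratins Krt73 and Krt28 were at 405 and 151 CPM in Mock and at 910 and 414 CPM in scASO.

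**Figure D4:**
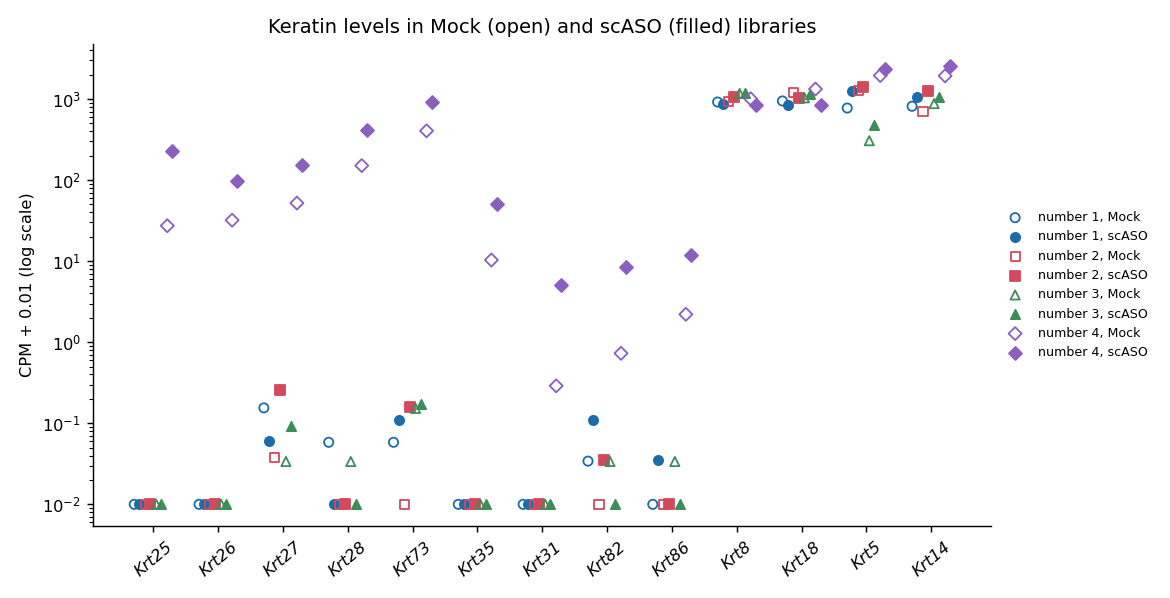
CPM plus 0.01, on a log axis, of 13 keratin genes in each Mock (open) and scASO (filled) library, coloured by number. The 9 keratins on the left are above 0.2 CPM mainly in number 4, where scASO exceeds Mock, whereas Krt8, Krt18, Krt5 and Krt14 are high in all 8 libraries.

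The 2 Malat1 oligonucleotides were compared with the same 4 Mock libraries in the same fit, so the 3 sets of values share their controls and are given side by side only. ASO1 gave 407 calls (2.38%), of which 321 were higher (1.87% of genes tested) and 86 lower (0.502%). ASO2 gave 312 (1.82%), 249 higher (1.45%) and 63 lower (0.368%), with the library labelled ASO2 1 included, whose Malat1 level goes against its label. Grem1 changed by 1.93 ± 0.21 with scASO, 1.76 ± 0.20 with ASO1 and 1.42 ± 0.20 with ASO2. Lrrc8c changed by 0.90, 0.96 and 0.78, Adamts4 by 0.89, 1.09 and 0.87, Lrp1 by 0.83, 1.06 and 0.86 and Vim by 0.92, 0.95 and 0.76, each with an adjusted p under 0.05 in all 3 comparisons. Fam234b changed by -0.58, -0.64 and -0.47 and passed in all 3 as well. The ribosomal genes called with scASO did not pass with either Malat1 oligonucleotide. Rpl37 was at -0.78 ± 0.13, -0.28 ± 0.13 and -0.09 ± 0.13, Rps18 at -0.48 ± 0.10, -0.12 ± 0.10 and 0.04 ± 0.10, and Rps15a-ps7 at -0.55 ± 0.10, 0.02 ± 0.10 and 0.13 ± 0.10. Serpina3n passed with scASO and ASO1 (1.3 and 1.21) and had an estimate of 0.65 ± 0.20 with ASO2 (adjusted p = 0.12). Differences between the 3 oligonucleotides were not tested here.

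**Figure D5:**
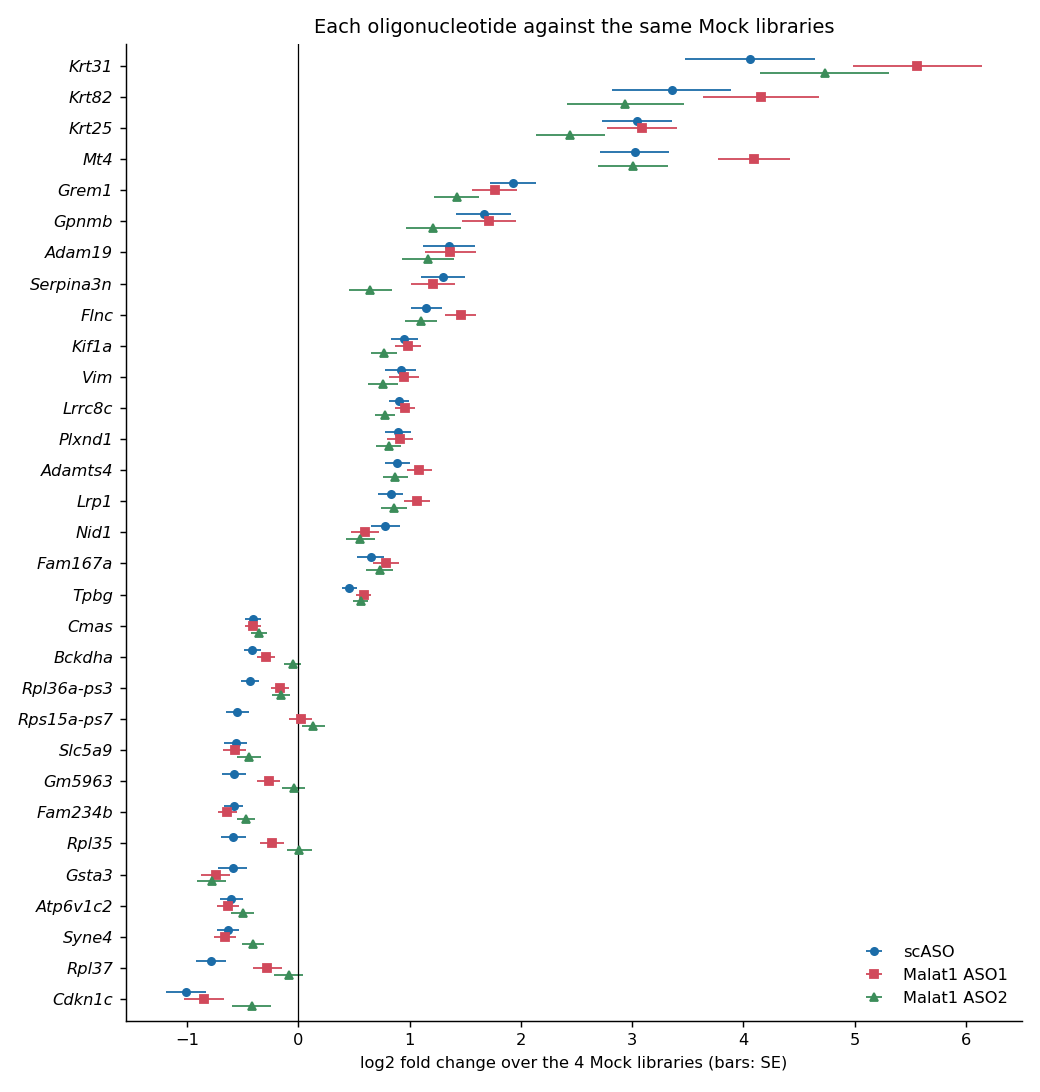
Log2 fold change (points) and SE (bars) of named genes for scASO, Malat1 ASO1 and Malat1 ASO2, each against the same 4 Mock libraries. Grem1, Lrrc8c and Adamts4 lie right of 0 for all 3 oligonucleotides, and Rpl37, Rpl35, Gm5963 and Rps15a-ps7 lie farther left for scASO than for the other two.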

How the data were processed

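Each deposited table holds raw read counts per gene for 1 library, 37310 genes and 5 further lines that are not genes; the submitters' processing notes name CASAVA, FastQC, STAR, HTSeq, DESeq2 and mm9 without versions, while the sources used here give neither strand nor annotation. Per the labels, libraries were made from polyA+ RNA with TruSeq chemistry from 1 µg of RNA. The further lines were left out of library sizes. Symbols and positions come from GENCODE M21 (GRCm38), which matched 32620 genes.

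Counts of all 16 organoid libraries were filtered (filterByExpr, minimum count 10, minimum total 15), scaled by TMM and fitted in edgeR 4.0.16 (R 4.3.3) with number and group. Quasi-likelihood tests were adjusted by Benjamini-Hochberg over all genes, with a threshold of 0.05; SE is the change divided by the root of F. Numbers were taken to pair the libraries: same-number correlations across groups were over 0.1 in 24 of 24 pairs (median 0.817). For other numbers 14 of 72 pairs were over 0.1 (median -0.323, highest 0.800). The library labelled scASO 2 correlated best with number 1, so its pairing is uncertain. On simulated counts of this comparison (17126 genes), the test recovered 82 of 100 genes at a change of 2-fold and 97 of 100 at 4-fold, with 13 false calls. Changes were planted only in genes above a minimum mean count, and each simulated library kept its labelled number and group. DESeq2 1.42.0 and limma 3.58.1, each library left out, other filters, scaling and fits without the block were alternatives.

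The members and the 47 gene lists were chosen with earlier results of these data known. Named genes are Malat1, Neat1, the 12 smallest p per direction at a mean log2 CPM of at least 1 with and without scASO 2, the 5 largest changes, and per list up to 4 smallest p and the most highly counted member. Lists are described by counts and medians, without a test. A few named genes are not reported here.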

Additional observations from a re-analysis of the deposited data

Results flagged for a closer look

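Among the 98 genes examined, 22 of 196 groups of 4 libraries held a library whose gap to the nearest other exceeded Dixon's limit. That limit is passed by about 1 in 20 groups of independent, normally distributed values. The genes were chosen from these data, and Krt25, Krt31 and Mt4 had reads in number 4 only. The count of 22 is therefore no measure of an excess over chance. The flagged groups concern 16 genes, and 14 of the 22 fall on number 4. In both groups, number 4 stood apart for Krt25 (27.3 CPM in Mock, 228.9 in scASO), Krt31 (0.280 and 5.11), Krt82 (0.719 and 8.53), Mt4 (3.08 and 25.6) and Krt14 (1930 and 2559). Number 4 also stood apart in Mock for Neat1, at 1661 CPM, and Il33, at 205 CPM, and in scASO for Anxa2, at 1394 CPM, and Ccnd1, at 619 CPM. Number 3 was low for Tpbg in both groups (14 CPM in Mock, 20.8 in scASO) and in Mock for Kif1a, at 2.23 CPM, and Col17a1, at 116 CPM. Number 3 was high in scASO for Rab27a, at 24.6 CPM, Ifi35, at 33.9 CPM, and Oas1a, at 31.9 CPM. Mock 1 was high for Mki67, at 710 CPM.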

How the results depend on the processing

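The counts of higher and lower genes, 94 and 34, were 0 and 0 with no replicate block (272 genes at an unadjusted p under 0.05) and also with no replicate block and without the library labelled scASO 2 (148 genes). With the block and only scASO and Mock libraries they were 22 and 1, and 178 and 30 when that library was also left out. Without it and ASO2 1 they were 243 and 65, with DESeq2 331 and 265 (adjusted p for 15797 genes), and with limma voom and quality weights 344 and 249. Relative log expression scaling gave 98 and 32, no filter 115 and 32, and a minimum of 1 CPM in 8 libraries 93 and 43. Leaving out each of the 8 libraries gave 5 to 80 higher and 0 to 28 lower genes. The causes of these differences were not tested. The Malat1 log2 ratio was -1.30 to -0.163 with each library left out, and a sign-flip of the 4 within-number ratios, the replicate block for this value, gave an exact p of 0.625. No named gene past the threshold changed direction under any of these settings. Among those that did not pass, with only scASO and Mock libraries and without the library labelled scASO 2, Malat1 and Ddx58 had estimates of 0.04 and 0.05, and Ddx58 of 0.06 with limma. Anxa2, Neat1 and Pkm, all near 0, also changed sign when single libraries were left out. The median log2 fold change of all genes was within 0.012 of 0 under every setting. On simulated counts at this depth the test recovered 82 of 100 genes at a change of 2-fold, so smaller changes may go undetected. The simulation changed only genes above a minimum mean count and held no library that goes against its label, so this rate may not hold for all genes here.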
